A study of Homo sapiens with 124 samples.

Results

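The keratin and epidermal differentiation gene clusters are groups of neighbouring genes that build the outer skin, hair and nails. Here they were taken as 5 stretches of the genome and followed in maps of contact with the nuclear lamina. Their bins were chosen by position alone, on the build hg19: chromosome 1 from 151900001 to 153600000 (the epidermal differentiation complex), chromosome 12 from 52500001 to 53300000 (the type II keratins), chromosome 17 from 38800001 to 39800000 (the type I keratins with keratin-associated proteins), chromosome 21 from 31600001 to 32300000 (the keratin-associated proteins of 21q22.1) and chromosome 21 from 45900001 to 46200000 (those of 21q22.3). They hold 45 of the 26426 usable bins of 100 kb, namely 17, 8, 10, 7 and 3 in that order, and all 45 were usable. The bins within 1 Mb on each side of each cluster, 100 in all, served as its flanks.

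The study mapped lamina contacts in single cells by DamID, in which the bacterial methyltransferase Dam marks adenines in GATC motifs of DNA that comes near a fused protein. All cells were haploid (1N) KBM7 cells of clone 14 carrying Dam fused to LaminB1. KBM7 is a human leukaemia line (chronic myeloid) with a near-haploid genome, so all values describe 1 clone of blood cell origin, and no skin cell was part of the series. Per the labels' protocols every cell received 0.5 nM Shield1, a ligand that stabilises proteins with a destabilising domain, for 15 h, was sorted from the smallest 2% of cells positive for both Fucci cell cycle markers, and was amplified with 21 extension steps. The 118 cells analysed form a single group. The labels name no cultures, so the SDs and p-values below measure the spread between these cells.

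The nuclear lamina is a protein mesh under the nuclear envelope, and the DNA that touches it is mostly poor in active genes. Many clusters of tissue-specific genes lie near the lamina in cells that do not use them. Keratins are the filament proteins of epithelia: each type II keratin pairs with a type I keratin. Keratin-associated proteins (KRTAP) embed the filaments of the hair shaft. The epidermal differentiation complex encodes the cornified envelope of the outer skin, with loricrin, involucrin, the small proline-rich proteins (SPRR), the late cornified envelope proteins (LCE) and the fused S100-type proteins around filaggrin.

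From RefSeq on the build GRCh38.p14, 200 protein-coding genes of these families were assigned to the 5 clusters by name and chromosome. Whether each of them lies inside the bounds given above was not checked. An annotation of hg19 was not used here, so no gene was assigned to a bin, and only the order of genes along each cluster is used. The list for the complex on chromosome 1 holds 62 genes. S100A10 and S100A11 come first, then 7 fused S100-type genes (TCHHL1, TCHH, RPTN, HRNR, FLG, FLG2 and CRNN). Next come 19 LCE genes mixed with CRCT1, KPRP and SMCP, then IVL, 11 SPRR genes, LELP1, PRR9, LORICRIN, PGLYRP3 and PGLYRP4. Last is the main run of S100 calcium-binding genes from S100A9 to S100A1. That list has 16 S100 genes in all. The list for chromosome 12 holds 27 keratin genes, of which the last, KRT18, is a type I keratin. The list for chromosome 17 holds 28 keratin and 34 KRTAP genes, that for 21q22.1 holds 33 KRTAP genes and that for 21q22.3 holds 16.

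DamID reads start at GATC motifs, so the promoter of 1 gene from each cluster is printed with its GATC motifs in capitals, to show what the method can and cannot see at a gene start. Each is the run of 250 bases just before the gene start, from RefSeq on GRCh38.p14, 5′ to 3′ on the gene's own strand. The genes are LORICRIN (cornified envelope, chr1:153259437-153259686, plus strand), KRT5 (basal keratinocyte keratin, chr12:52520395-52520644, minus strand), KRT10 (keratin of the layers above, chr17:40822615-40822864, minus strand), KRTAP13-1 (21q22.1, chr21:30395781-30396030, plus strand) and KRTAP10-1 (21q22.3, chr21:44540196-44540445, minus strand).
LORICRIN: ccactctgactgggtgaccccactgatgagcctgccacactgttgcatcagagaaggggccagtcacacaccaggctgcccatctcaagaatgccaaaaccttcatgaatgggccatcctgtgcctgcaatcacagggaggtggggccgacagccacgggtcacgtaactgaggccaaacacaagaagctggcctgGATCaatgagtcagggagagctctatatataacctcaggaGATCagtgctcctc
KRT5: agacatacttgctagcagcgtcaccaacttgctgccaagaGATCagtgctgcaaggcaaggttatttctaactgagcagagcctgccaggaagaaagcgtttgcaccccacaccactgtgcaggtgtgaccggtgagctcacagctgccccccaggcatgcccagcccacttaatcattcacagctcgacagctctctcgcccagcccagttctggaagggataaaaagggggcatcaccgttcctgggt
KRT10: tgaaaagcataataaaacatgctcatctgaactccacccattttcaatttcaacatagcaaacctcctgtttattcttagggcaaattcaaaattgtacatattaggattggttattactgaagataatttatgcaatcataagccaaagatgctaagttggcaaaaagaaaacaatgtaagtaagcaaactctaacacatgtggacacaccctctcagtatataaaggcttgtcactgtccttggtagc
KRTAP13-1: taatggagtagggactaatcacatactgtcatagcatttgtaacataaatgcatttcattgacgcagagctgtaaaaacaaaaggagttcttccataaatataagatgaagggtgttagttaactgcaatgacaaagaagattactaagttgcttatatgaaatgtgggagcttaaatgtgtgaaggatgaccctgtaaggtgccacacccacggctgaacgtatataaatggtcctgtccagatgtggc
KRTAP10-1: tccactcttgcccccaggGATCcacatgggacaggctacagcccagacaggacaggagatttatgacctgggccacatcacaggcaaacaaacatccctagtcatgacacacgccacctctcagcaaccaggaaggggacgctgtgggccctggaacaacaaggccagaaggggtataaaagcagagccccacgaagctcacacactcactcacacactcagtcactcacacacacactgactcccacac
The LORICRIN window holds 2 GATC motifs, those of KRT5 and KRTAP10-1 hold 1 each, and those of KRT10 and KRTAP13-1 hold 0. In these windows the GC content was 55.6% for LORICRIN, 56% for KRT5, 34.8% for KRT10, 38.8% for KRTAP13-1 and 56% for KRTAP10-1.

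A bin counted as in contact in a cell where its deposited ratio of observed to expected reads was at least 1. The median cell had 135782 recovered reads, the shallowest 28372 and the deepest 385661. A ratio of 1 corresponded to 5.63, 1.17 and 15.9 reads in these cells, and to under 3 reads in 14 cells. Over all usable bins, 33.0% ± 5.47 of bins were in contact per cell (SD, n = 118). The cells numbered 96 to 124, 28 of the 118, held 26.3% of all contacts of the genome and make up 23.7% of the cells.

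The 5 clusters did not share 1 state. The KRTAP genes of 21q22.1 touched the lamina in most cells, the epidermal differentiation complex in a minority, the type I and type II keratins in a few cells each, and the KRTAP genes of 21q22.3 in none. Over the 45 bins together, 15.0% ± 9.07 were in contact per cell (SD, n = 118), with a lowest cell at 0, a median of 15.6% and a highest cell of 37.8%. By contact frequency, the percentage of cells with a given bin in contact, the median member bin stood at 3.39% and the median bin of the genome at 17.8%. Of the 45 bins, 10 (22.2%) had no contact in any cell, 26 (57.8%) were above 0 and under 20%, 9 (20.0%) lay from 20% to under 80%, and 0 reached 80%. Of the 26426 bins of the genome, 5889 were at 0, and the other classes held 28.8%, 33.9% and 15.1%. In the 100 flank bins the 4 classes held 63, 24, 13 and 0.

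**Figure D1:**
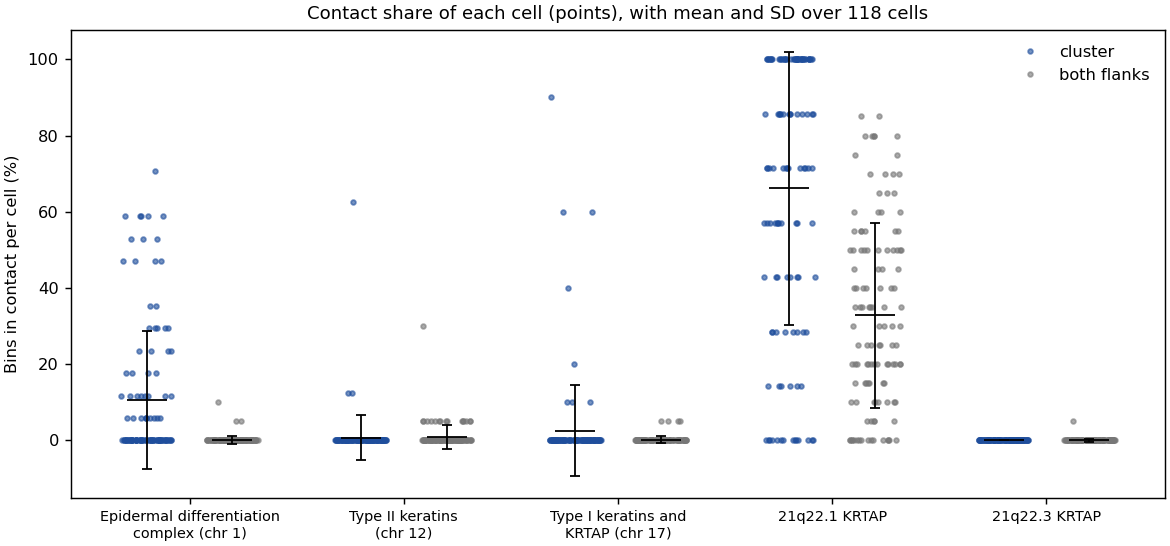
Each point is 1 of 118 cells, and the y axis gives the percentage of a cluster's bins (left of each pair) or of the bins in its flanks (right of each pair) in contact with the lamina, with mean and SD marked. The 21q22.1 KRTAP cells spread from 0 to 100% around a mean of 66.2%, the epidermal differentiation complex from 0 to 70.6% around 10.6%, and 21q22.3 lies at 0 in every cell.

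Each bin of the genome was also set against the usable bins within 1 Mb on either side in the same cell. This used a two-sided sign-flip permutation test over 118 cells with Benjamini-Hochberg adjustment over all 26230 bins tested. Of those, 67.7% were called at 0.05: 30.3% higher than their surroundings and 37.4% lower. Among the 44 member bins tested, 15 (34.1%) were called higher and 11 (25.0%) lower, 18 were not called, and 1 bin at 0 throughout was not tested. The median difference was 1.02 points for the members and -0.15 points for all bins. As a group the members thus lie near the background in the higher direction and below it in the lower direction. The calls fell unevenly between the clusters, and a bin in contact in few cells could hardly be called higher. In cells 1 to 94 alone 12 member bins were called higher and 6 lower, where 29.1% and 35.9% of all bins were. In cells 96 to 124 alone 8 were called higher and 6 lower, where 19.8% and 26.0% of all bins were.

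The epidermal differentiation complex was in contact in a minority of cells, inside flanks that were almost free of contact. Its bins were in contact in 10.6% ± 18.0 per cell (SD, n = 118), with a lowest and a median cell of 0 and a highest of 70.6% in cell 100. At least 1 bin was in contact in 46 of 118 cells (39.0%, exact Clopper-Pearson 95% interval 30.1 to 48.4%). No contact was seen in the cluster in 72 cells, and contact covered over 50% of its bins in 9 cells and never covered all of them. The flanks were in contact in 0.169% ± 1.12 of bins, in 3 cells.

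The difference between the complex and its flanks was 10.4 points ± 18.2 (SD, n = 118). The complex was higher in 46 cells, equal in 70 and lower in 2, with an adjusted p of 2.00e-05 (two-sided sign-flip permutation test over cells, Benjamini-Hochberg over 25 comparisons of clusters with flanks and with each other). The unadjusted p of 1e-05 is the smallest that 100000 permutations can give. Cells 1 to 94 had a mean of 7.39% ± 15.0 with contact in 28 of 90 cells, and cells 96 to 124 had 20.8% ± 22.9 with contact in 18 of 28. The cells numbered 96 to 124 thus held 46.7% of the 212 contacts of the complex, against 26.3% of those of the genome. The difference from the flanks was 7.33 points in cells 1 to 94 and 20.3 points in cells 96 to 124. By mean ratio the complex stood at 0.208 in cells 1 to 94 and at 0.566 in cells 96 to 124. Its nearly bare flanks also rose, from 0.0169 to 0.120 in the same order, by less than the complex. The 21q22.1 cluster went the other way, with 1.89 and 1.48. Whether the number set bears on the level of the complex was not tested.

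Within the complex the contact frequency had an inner plateau with a dip and 2 bare ends. Along the chromosome the 17 bins, named by their start in Mb, were in contact in 0 cells at 151.9, 4 at 152.0, 8 at 152.1, 26 at 152.2, 17 at 152.3, 5 at 152.4, 20 at 152.5, 18 at 152.6, 21 at 152.7, 16 at 152.8, 21 at 152.9, 30 at 153.0, 22 at 153.1, 3 at 153.2, 1 at 153.3 and 0 at 153.4 and at 153.5. The highest bin, at 153.0, had a frequency of 25.4% (95% interval 17.9 to 34.3%), and the bin at 152.2 had 22.0% (14.9 to 30.6%). These intervals overlap, and the bins were not tested against each other. The exact 95% interval of the bins at 0 reaches 3.08%. By number set, the bin at 153.0 stood at 18.9% (cells 1 to 94) and 46.4% (cells 96 to 124). In the same order the bin at 152.2 stood at 17.8% and 35.7%, and the bin at 152.8 at 6.67% and 35.7%.

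Against the surroundings, 8 of the 17 bins (47.1%) were called higher and 7 (41.2%) lower, beside 30.3% and 37.4% of the bins of the genome, so the lower share is near the background. A bin at 0 in every cell, here as in the other clusters, can only come out lower. The 2 bins not called were 152.1 and 152.8 (adjusted p = 0.454 and 0.0526, permutation test over cells). For 152.8 the difference was 0.722 points in cells 1 to 94 and 19.8 points in cells 96 to 124. The bin at 153.0 exceeded its surroundings by 17.7 points with an adjusted p of 2.29e-05 (13.6 points in cells 1 to 94 and 30.9 in cells 96 to 124), and the bin at 152.2 by 14.2 points with an adjusted p of 6.48e-05. Between them the dip at 152.4 was called lower, at -4.53 points with an adjusted p of 0.0453. The other 6 lower bins were the edges of the stretch, from 151.9 to 152.0 and from 153.2 to 153.5. In RefSeq's gene order the complex starts with S100A10 and S100A11 and ends with the S100 run, with the fused S100-type, LCE, IVL and SPRR genes between. Which gene lies on which side of these steps was not determined.

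**Figure D2:**
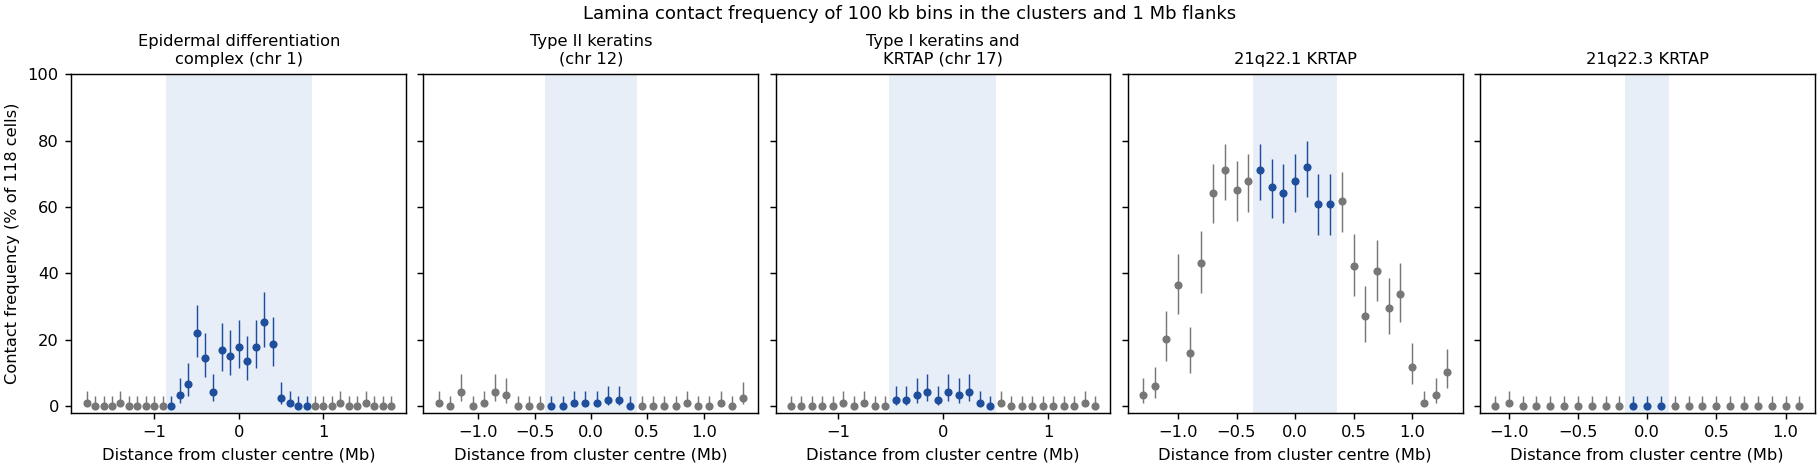
The x axis gives the distance from the cluster's centre in Mb, the y axis the contact frequency in percent of 118 cells, 1 panel for each cluster with the cluster shaded and 1 Mb of flank on each side, and bars give exact 95% intervals. The epidermal differentiation complex rises to 25.4% between bare flanks, while the plateau of the 21q22.1 KRTAP bins, from 61.0 to 72.0%, runs on into both flanks.

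Counted at a value of 1, contact in the complex came in short pieces. A value just under 1 ends a run, and the bin at 152.4, in contact in only 5 cells, broke most of the longer ones. The 46 cells held 94 runs of consecutive bins in contact, and all 94 lay inside the cluster bounds, with 0 reaching out. The chosen bounds fixed this in advance: the outermost bins, at 151.9 and 153.5, were at 0 in every cell, so no run could cross. Of these runs, 47 were a single bin, the median run was 0.15 Mb, and the longest was 1.2 Mb. In 15 cells there was 1 run, and in 31 cells there were 2 or more, up to 5. By the number of bins in contact, 10 cells had 1 bin, 8 had 2, 4 had 3, 4 had 4, 5 had 5, 2 had 6, 4 had 8, 3 had 9, 5 had 10 and 1 had 12.

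Contacts in different bins of the complex fell largely together in cells. Over the 10 bins at 5% or more, the 45 pairs had a mean Pearson r over 118 cells of 0.55, from 0.30 to 0.71, and 0.54 after the cell's own contact share was removed. For the 18 pairs at least 0.5 Mb apart the mean was 0.49. These are descriptions: the bins of a cell share its library and depth. The contact share of the complex had an r of 0.22 with the log10 of recovered reads and 0.21 with the cell's contact share, over the same 118 cells.

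No frequently contacted region lay close to the complex. The nearest bin at 20% or more was 8.3 Mb below it and 4 Mb above it, the nearest at 50% or more 9.3 and 4.8 Mb away, and the nearest at 80% or more 43.9 and 16.7 Mb away. On chromosome 1 as a whole, 26.0% ± 5.94 of bins were in contact per cell (SD, n = 118), and the median bin had a frequency of 5.08%. Reads also separated the complex from its flanks without any threshold on contact: its mean ratio was 0.293 against 0.0415 in the flanks, and 64.4% of its bin values were without a read against 85.8%.

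**Figure D3:**
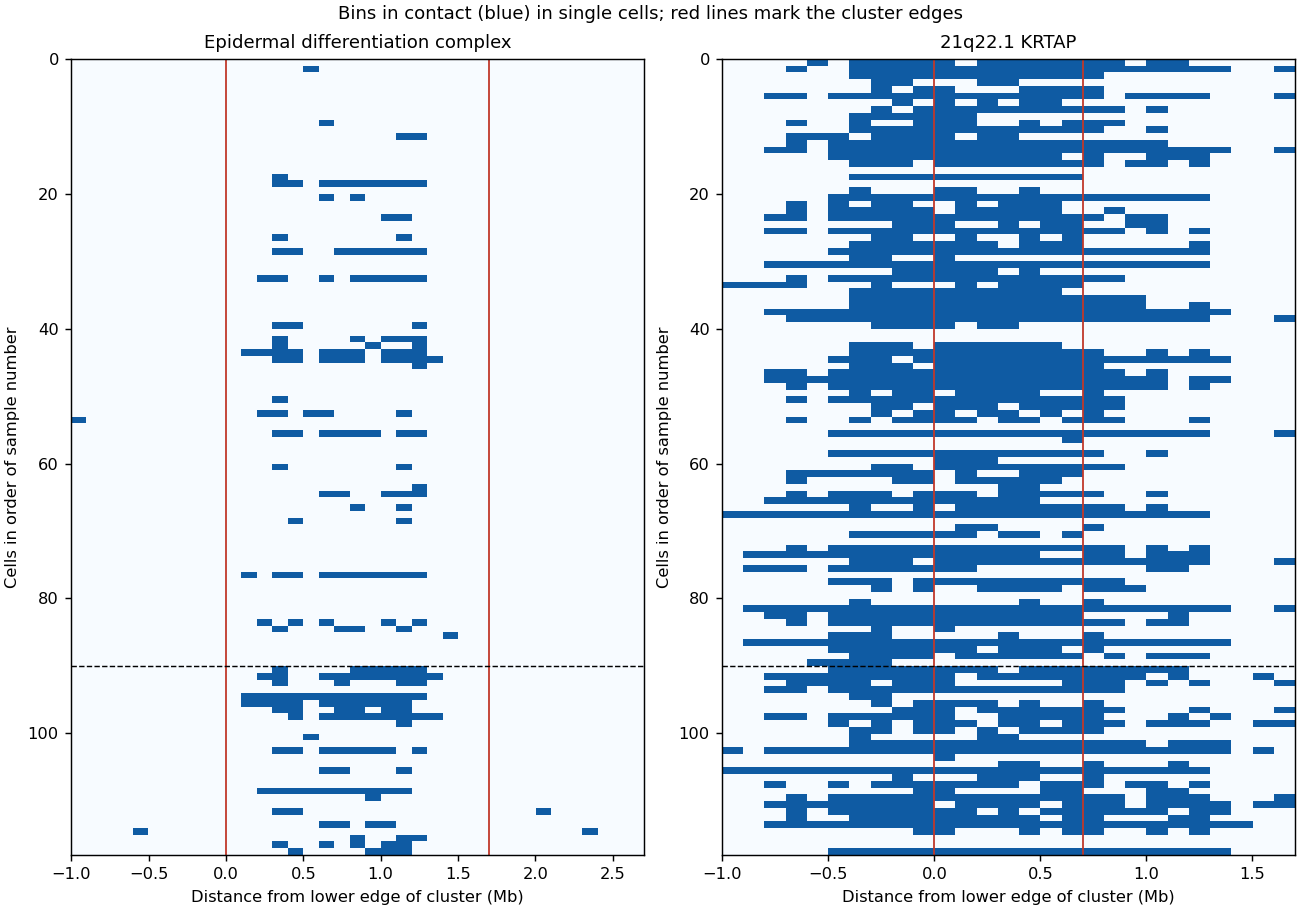
Each line across is 1 of the 118 cells in order of sample number (the dashed line parts cells 1 to 94 from 96 to 124), the x axis gives the distance from the lower edge of the cluster in Mb with 1 Mb of flank on each side, and blue marks a bin of 100 kb in contact. In the epidermal differentiation complex (left) the blue bins of 46 cells sit between the red cluster edges in 94 short runs, and at 21q22.1 (right) 95 of 149 runs cross an edge. No run of the complex could cross an edge, since its outermost bins were at 0 in every cell.

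The KRTAP genes of 21q22.1, which encode matrix proteins of hair, were the cluster most often at the lamina. Their bins were in contact in 66.2% ± 35.8 per cell (SD, n = 118), with a lowest cell of 0, a median of 71.4% and a highest of 100%. Contact was present in 104 of 118 cells (88.1%, exact 95% interval 80.9 to 93.4%), in over 50% of the bins in 82 cells and in all 7 bins in 44 cells. The remaining 14 cells had none. Cells 1 to 94 and 96 to 124 lay at 67.1% and 63.3%.

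The 7 bins were close to each other in frequency. From 31.6 to 32.2 Mb they stood at 71.2%, 66.1%, 64.4%, 67.8%, 72.0%, 61.0% and 61.0%. The highest, at 32.0, had a 95% interval of 63.0 to 79.9%, which holds 5 of the 7 frequencies, and these bins were not tested against each other. In cells in contact, the median ratio of a bin ranged from 1.79 to 2.67. All 7 bins were called higher than their surroundings, by 12.7 to 23.6 points, against 30.3% of bins in the genome. In cells 1 to 94 all 7 differences were positive, from 12.2 to 26.1 points. In cells 96 to 124 the bin at 31.7 lay at -2.68 points and the bin at 32.1 at 1.07 points, and the other 5 from 6.25 to 25.7 points.

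The flanks of 21q22.1 were in contact in 32.8% ± 24.3 of bins, 39.4% below the cluster and 26.2% above it. The difference of 33.4 points ± 24.1 (SD, n = 118) was positive in 100 cells, 0 in 12 and negative in 6, with an adjusted p of 2.00e-05 (permutation test over cells). It was 26.8 points against the lower flank and 40.0 points against the upper. The cluster's bounds were not the bounds of the contact: the 4 bins just below, from 31.2 to 31.5, stood at 64.4%, 71.2%, 65.3% and 67.8%, and the bin just above, at 32.3, at 61.9%, before 42.4% in the next. With flanks of 0.5 Mb the lower side gave a difference of 3.85 points and an adjusted p of 0.103, so the call on that side is lost. The domain of high contact thus extends beyond the KRTAP bins as chosen.

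The runs of contact at 21q22.1 were long. Of 149 runs that touched the cluster, 95 reached outside it. The median run was 0.4 Mb and the longest 5.4 Mb. The 21 pairs of bins had a mean r over cells of 0.50, and 0.49 with the contact share of the cell removed. No bin at 80% or more lay within 20.4 Mb below the cluster, and none lay above it on the chromosome. Chromosome 21 as a whole had 25.8% ± 9.93 of bins in contact (SD, n = 118) and a median bin of 14.4%.

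The other KRTAP group of the same chromosome, at 21q22.3, stood at the other end of the range. None of its 3 bins was in contact in any of the 118 cells, for which the exact 95% interval of each bin reaches 3.08%. The highest ratio of any cell in these bins was 0.42, and 92.9% of the values were without a read. Only 31 reads fell there over all cells, so the level was near the lowest that these maps can show. The flanks were in contact in 0.0424% of bins and 90.7% of their values had no read, and the difference from the cluster was not called (adjusted p = 1, permutation test over cells). The nearest bin at 20% or more lay 3.7 Mb below, and none lay above.

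The type I keratins and their KRTAP neighbours on chromosome 17 were in contact in 2.54% ± 12.0 of bins per cell (SD, n = 118), with a median cell of 0. Contact occurred in 8 of 118 cells (6.78%, exact 95% interval 2.97 to 12.9%), and these few cells differed widely. Cell 77 had 9 of the 10 bins in contact, cells 12 and 91 had 6 each, cell 19 had 4, cell 110 had 2, and cells 36, 49 and 98 had 1 each. Of the 30 contacts, 27 lay in cells 1 to 94. A value of 1 stood for under 3 reads in 3 of the 8 cells (12, 36 and 49), which held 8 contacts. In 7 of the 8 cells no flank bin was in contact, and cell 98 had 1.

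Over all cells the flanks of the type I cluster were in contact in 0.169% ± 0.909 of bins. The difference of 2.37 points ± 12.0 (SD, n = 118) was positive in 8 cells and negative in 3, and passed with an adjusted p of 0.0352 (permutation test over cells). It rests on single cells: leaving out any 1 of cells 12, 19, 36, 49, 77, 91 and 110 ends the call, with adjusted p up to 0.0742, and without cell 77 the value is 1.62. Without the 14 shallow cells, which include 3 of the 8 cells with contact, the difference was 1.92 points (adjusted p = 0.168, same test). In cells 96 to 124 it was 0.357 points (adjusted p = 1, same test). Only 2 cells of that set had contact in the cluster, so the test could hardly have called a difference there.

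Among the 10 bins of the type I cluster, frequencies ran from 0 at 39.7 to 4.24% (5 cells) at 39.1, 39.3 and 39.5. The edge bin at 38.8 was in contact in 2 cells. No bin was called higher than its surroundings, beside 30.3% of the bins of the genome. With contact in at most 5 cells this was all but fixed in advance. Even the bins at 39.1, 39.3 and 39.5 had an unadjusted p of 0.0615 to 0.0624 (permutation test over cells). The absence of higher calls is therefore no result about the cluster. The bin at 39.7, at 0 in every cell, was called lower (-1.36 points, adjusted p = 0.00326, permutation test over cells), and 9 were not called. The lower share was thus 10% of the cluster's bins, beside 37.4% in the genome. The nearest bin at 20% or more lay 13.4 Mb below and 9.6 Mb above. Chromosome 17 has little contact anywhere, with 9.45% ± 5.26 of bins per cell (SD, n = 118) and a median bin of 0.847%.

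The type II keratins on chromosome 12 were in contact in 0.742% ± 5.96 of bins per cell (SD, n = 118). Contact occurred in 3 cells, all numbered 96 to 124: cell 119 had 5 of the 8 bins in contact, and cells 101 and 113 had 1 each. Cell 119 also had 6 of the 20 flank bins in contact. Without cell 119 the cluster's share was 0.214%. Frequencies ran from 0 at 52.5, 52.6 and 53.2 to 1.69% (2 cells) at 53.0 and 53.1. Those 3 bins at 0 (37.5% of the 8) were called lower than their surroundings, which is the genome's share of 37.4%. Of the 8, 0 were called higher, which contact in at most 2 cells fixed in advance. The bins at 53.0 and 53.1 had an unadjusted p of 0.502 and 0.501 (permutation test over cells).

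The type II cluster and its flanks, which were in contact in 0.890% ± 3.18 of bins, were not told apart: the difference was -0.15 points ± 3.57 (SD, n = 118), with an adjusted p of 0.884 (permutation test over cells). It was -0.43 points without cell 119, -0.39 points in cells 1 to 94, where the cluster had no contact at all, and 0.625 points in cells 96 to 124. With flanks of 2 Mb it was -1.12 points and passed (adjusted p = 0.00226). With a contact value of 2 it was 0.233 points, and with the bounds drawn in by 1 bin 0.0989 points. Against the lower flank alone the difference was -0.61 points with an adjusted p of 0.0342, a call that most settings did not keep. It was lost in each number set, without the shallow cells, after thinning, with flanks of 0.5 or 2 Mb, with the bounds drawn in and with a contact value of 2 (0.233 points), and when any 1 of cells 2, 19, 24, 69, 114, 116, 121, 123 and 124 was left out. The nearest bin at 20% or more lay 7 Mb below and 1.9 Mb above, and chromosome 12 as a whole had 30.2% ± 8.85 of bins in contact (SD, n = 118).

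Between clusters, the complex on chromosome 1 exceeded the type II keratins by 9.83 points and the type I cluster by 8.03 points, with adjusted p of 2.00e-05 and 0.000185, and lay at -55.7 points against 21q22.1 with 2.00e-05 (permutation tests over cells). Counting only values of 2 or more as contact, the difference between the complex and the type I cluster was 1.22 points and no longer passed (adjusted p = 0.276). The 2 keratin clusters, whose products pair in the filament, differed by -1.80 points ± 13.5 (SD, n = 118; type II minus type I, adjusted p = 0.201), which does not show that they act alike. That difference was -3 points in cells 1 to 94 (adjusted p = 0.0352), where type II was at 0 throughout, and 2.05 points in cells 96 to 124 (adjusted p = 0.752). Since 21q22.3 was at 0 in every cell, a difference from it can only be positive or 0 and restates the other cluster's own share. For the type I and type II clusters it was 2.54 and 0.742 points.

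Contact in 1 cluster had little relation over cells to contact in another. Over 118 cells, the r between the contact shares of 2 clusters ranged from -0.06 for the complex and 21q22.1 to 0.10 for the complex and the type II keratins, over the 6 pairs with contact. These values are descriptions, and the type I and type II values rest on 8 and 3 cells with contact.

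The promoters of the clusters differed in base composition, which none of the rules above used. RefSeq windows from 250 bases before to 50 after the gene start matched 170 of the 200 genes. Their median GC content was 53.5% in the complex, 43.0% in the chromosome 17 cluster, 38.5% at 21q22.1 (31.3 to 45.7%) and 55.3% at 21q22.3 (47.3 to 62.7%), so the windows of the 2 KRTAP groups on chromosome 21 do not overlap. Over 22199 windows of protein-coding genes the median was 62.3%. Only 14 of the 27 keratin genes of the chromosome 12 cluster had a window, so this check and those of the motifs are void there.

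The share of windows with at least 1 GATC (the motif is its own complement) was 44.8% in the complex, 41.5% in the chromosome 17 cluster, 46.7% at 21q22.1 and 33.3% at 21q22.3, against 40.0% of all windows of protein-coding genes. The letters TATAAA on the gene's strand, inside the 40 bases from 50 to 10 before the gene start, were found in 46.6% of the windows of the complex, 56.6% of those of the chromosome 17 cluster, 43.3% at 21q22.1 and 46.7% at 21q22.3, and in 3.18% of all protein-coding windows. A match to these letters is a description of the sequence. The order of the clusters by GC content is given beside their contact with no test, since 5 clusters are too few.

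**Figure D4:**
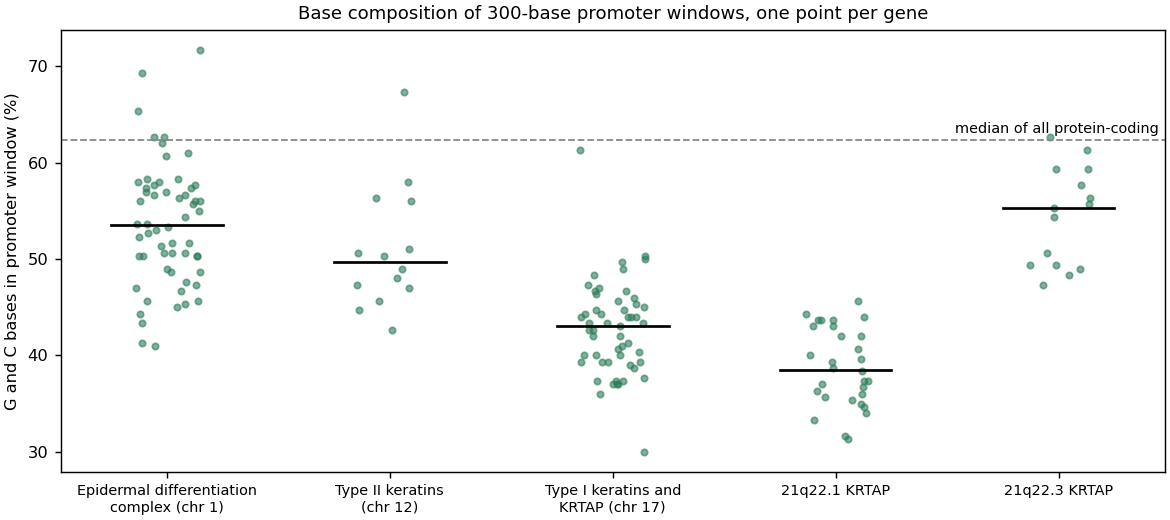
Each point is the GC content in percent of 1 promoter window of 300 bases, grouped by cluster on the x axis, with the median of each group and the median of all protein-coding windows marked. The 21q22.1 KRTAP windows lie from 31.3 to 45.7% and those of 21q22.3 from 47.3 to 62.7%, below and above a gap. The median of all protein-coding windows is 62.3%.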

How the data were processed

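The authors deposited 1 table for the whole series, holding for each cell and each bin of 100 kb a ratio of observed to expected reads. Per the submitters' processing notes, cutadapt, Bowtie2 2.1.0 and hg19 were used. For the expected part and any further step, the method was not given in the sources used here. Columns were present for 118 of 124 cells, and samples 33, 34, 44, 86, 95 and 120 were not analysed here. Accessibility was not corrected for, since a profile of unfused Dam was not used here.

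Usable bins (26426 of 30376) had no missing value and were not 0 throughout. Whole reads were recovered from the ratios: 100% of non-zero values were within 0.02 reads of a whole number. Intervals are exact Clopper-Pearson intervals at 95% on counts of cells and cover the sampling of cells only. The labels name no molecular identifiers. A value of at least 1 was a contact. Contact shares were compared within cells by a two-sided sign-flip permutation test with 100000 permutations and Benjamini-Hochberg adjustment, over 25 comparisons or over all bins tested, at a threshold of 0.05. In a simulation of the test of bins against their surroundings (26426 bins, changes of 20 points), 71% of raised and 98% of lowered bins were recovered, and 0.44% of unchanged bins were called. The simulation drew each bin independently at a flat rate per chromosome, without the correlation between neighbouring bins seen in the data. It placed no change on chromosomes with little contact, such as chromosome 17. These rates therefore do not carry over to the member bins, most of which had little contact. Python 3.11.15, numpy 2.4.6, scipy 1.17.1, pandas 2.3.3 and matplotlib 3.10.9 were used.

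All bins of the 5 clusters could be given; the highest, lowest and edge bins of each were to be given in full. Genes were those of the named families, assigned by name and chromosome and used by order only. The members and lists were chosen with earlier results of these data known. Alternatives changed the contact value, the flanks, the bounds, the cells and the depth.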

Additional observations from a re-analysis of the deposited data

How the results depend on the processing

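Of 337 values over 39 results and 12 alternative settings, 282 kept their direction and their side of the threshold, or for values and counts stayed within the spread between cells or within 1.5 times. That spread is a wide limit for contact shares. The complex counted as kept both at 7.39% in cells 1 to 94 and at 20.8% in cells 96 to 124. The share of 21q22.3, at 0 under every setting, also counted as kept. The count of 282 is therefore weak support for stability. The differences of the epidermal differentiation complex and of 21q22.1 KRTAP from both flanks kept direction and call under every setting run, from 2.49 to 20.3 points and from 14.9 to 36.5 points. The values that changed belong mostly to the keratin clusters of chromosomes 12 and 17, where 3 and 8 cells had contact, and the cause was not tested. Differences are in points, cluster minus flank or first minus second. With a contact value of 2, type II minus both flanks and minus its lower flank were 0.23, type I minus both flanks, either flank and 21q22.3 were 1.27, and the complex minus type I was 1.22. At that value 8 member bins were called higher and 7 lower, where 24.0% and 39.6% of all bins were. With a contact value of 0.5, 21q22.3 minus both flanks was -0.81, minus its lower flank -1.27, and type II minus 21q22.3 was 2.12, all now called. In cells 1 to 94, type II minus both flanks was -0.39, minus the lower flank -0.44, minus the upper flank -0.33 and minus type I -3. There 6 member bins were called lower, where 35.9% of all bins were. In cells 96 to 124, type II minus both flanks was 0.625, minus the lower flank -1.16 and minus type I 2.05, type I minus both flanks and either flank was 0.357 and minus 21q22.3 was 1.07. There 8 member bins were called higher and 6 lower, where 19.8% of all bins (5151 bins) and 26.0% were. With flanks of 2 Mb, type II minus both flanks was -1.12, minus the lower flank -0.19 and minus the upper flank -2.06. With flanks of 0.5 Mb, type II minus the lower flank was -0.78, type I minus both flanks 2.29, minus the lower 2.20 and minus the upper 2.37, and 21q22.1 minus the lower flank 3.85. With the cluster bounds drawn in by 1 bin, type II minus both flanks was 0.0989 and minus the lower flank -0.37. Without the 14 cells under 3 reads at a value of 1, type II minus the lower flank was -0.60, type I minus both flanks and either flank 1.92, and type I minus 21q22.3 was 2.12. Thinned to 50000 reads (109 cells, 9 shallower ones left out), type II minus the lower flank was -0.62 and minus the upper flank -0.53, type I minus the upper flank 2.02, and 21q22.3 minus both flanks -0.55 and minus the lower flank -0.83, the last 2 now called. With the mean ratio in place of contact, an alternative added after the data were seen, 21q22.3 minus both flanks was -0.0109, minus the lower flank -0.0185, and type II minus 21q22.3 was 0.0392, all now called. With surroundings of 0.5 Mb, 6 member bins were called higher, where 24.5% of all bins were. Leaving out each cell in turn, also added after the data were seen, moved type I minus both flanks from 1.62 to 2.44 and type II minus the lower flank from -0.73 to -0.53, and ended either call for the cells named beside it above. For type I against its upper flank, leaving out cell 98 also ended the call.

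No paired analysis was possible because the series has 1 group, and cluster and flank were already compared within each cell. Depth limits the shallow cells, where a single read can decide a contact, and the exact 95% interval of a bin at 0 reaches 3.08%. Where 1 side is at 0 in every cell, as 21q22.3 is in each of these counts of contact, the difference has only 1 possible direction. The flanks and the clusters are near neighbours, so a bound drawn elsewhere moves the difference, as at 21q22.1.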
